A study of Homo sapiens with 74 samples.

Results

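The regions described here are the widest stretches of open chromatin listed for HAP1 cells, those on autosomes whose end lies at least 1500 base pairs beyond their start. They numbered 4336 of the 138795 autosomal regions, and of 145536 regions in all, in the table of the BAF knockouts. A further 210 regions of that width lay on chromosomes X and Y and were not included. Every one of the 4336 also stood in the table of the knockdowns with the same coordinates, and every one passed the filter on low counts in both tables. Width was the only property used to choose them, and their widths and their counts come from the same libraries. Coordinates are hg19, printed as the files give them.

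HAP1 is a near-haploid human leukaemia line, and ATAC-seq counts the sites at which a transposase could insert into open chromatin. In the tested lines 22 genes of the BAF (SWI/SNF) chromatin remodeller had been knocked out, 1 gene per line, in 26 clones of 2 libraries each. SMARCA4, ARID1A, ARID1B and BCL7B had 2 clones, and each of the others had 1 clone, for which the gene and the clone cannot be told apart. The other lines were wild-type HAP1 cells, with 2 libraries in each of 2 library sets. In set 1 there are 23 clones beside replicates 1 and 2 of wild type. In set 2, beside replicates 5 and 6, there are clone 5 of ARID1B, clone 10 of BCL7B and clone 10 of SMARCC2. The sets were read from the form of the titles. In a second table of 16 libraries, a knockdown of SMARCA4, of ARID2 or of both, or a control knockdown, was made in wild-type cells. In the same table ARID2 knockout cells received the SMARCA4 or the control knockdown, and SMARCA4 knockout cells the ARID2 or the control knockdown. The knockdowns are called shSMARCA4, shARID2 and shControl below, as in the titles. Another label field writes them as si, so the reagent is not certain.

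In general, a wide accessible region is either a broad promoter, often one rich in CpG, or several neighbouring elements that were joined into one interval. BAF complexes use the energy of ATP to slide and evict nucleosomes, and in many cells they hold open enhancers more than promoters. SMARCA4 and SMARCA2 are the alternative ATPases, ARID1A or ARID1B defines canonical BAF, ARID2 with PBRM1, BRD7 and PHF10 defines PBAF, and BRD9 marks the non-canonical form. The regions carry no gene names in the files, and no annotation of their build was used, so genes, promoters and the targeted loci were not assigned here, and neither the knockouts nor the identity of the line was checked by marker genes.

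Set 1 libraries held 7.86 to 12.4 counts in units of 1000000, set 2 libraries 5.09 to 7.33 and knockdown libraries 5.36 to 12.4. The median wide region held 144 to 424 counts per library in the knockout table and 142 to 376 in the knockdown table, against 20 to 43 and 17 to 36 for the median of all regions. The labels do not say whether the 2 libraries of a group were separate cultures. A p-value here therefore reflects spread among libraries, which may be technical. A region is called when its adjusted p, from edgeR's quasi-likelihood test with Benjamini-Hochberg adjustment over all regions tested, was under 0.05. Wild type of set 2 differed from wild type of set 1, with no gene removed in either, at 224 wide regions (50 lower, 174 higher), or 5.17%, where 5.83% of all regions tested were called. Leaving out any 1 of those 4 libraries gave 72 to 135, and loess offsets, explained below, gave 101 lower and 199 higher. Each clone was therefore set against wild-type libraries from the same set. All comparisons of set 1 share the same 2 wild-type libraries, and all comparisons with wild-type cells in the knockdown table share the same 2 control libraries.

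The wide regions spanned 1500 to 3982 base pairs, with a median of 1737 and an interquartile range of 1603 to 1953, while the other autosomal regions had a median width of 614. Split at 2000 base pairs and midway between 1500 and 2000, they formed a narrow band of 2241, a middle band of 1177 and a broad band of 918. The lower limit cut through a continuous range. Regions on either side of it are given as examples. Among those of exactly 1500 base pairs, chr2:47571463-47572963 had 13.4, chr2:157656438-157657938 had 11.0 and chr2:211112860-211114360 had 3.29 CPM per kb, that is, counts per 1000000 counts of the library and per kb of width. Among those 1 base pair narrower, chr1:151019925-151021424 had 13.9, chr1:151416185-151417684 had 7.89 and chr2:177042251-177043750 had 7.01 CPM per kb. The levels of these examples on either side of the limit overlapped.

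Wide regions were strong regions, in total counts and per kb of width. Their median accessibility was 30.8 CPM, against 3.30 CPM for the other autosomal regions, and 99.7% of them stood in the top 25% of all regions by CPM. None was below the median of all regions, which was 3.41 CPM. Per kb of width the median was 16.8 CPM per kb, with a range of 3.12 to 76.0, against 5.24 in the others, and 88.5% were in the top 25%. Level and width were nearly unrelated within the wide regions, with a Spearman rho of 0.109 over 4336 regions of the same libraries.

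They were also steady between lines. The standard deviation of log2 CPM over the 26 clones and wild type of set 1 had a median of 0.18, against 0.33 in the other autosomal regions and 0.25 in those others that stood in the top 25% by CPM. Counting noise is smaller for strong regions, and its part in this difference was not tested. The steadiest were chr6:149866120-149867961, chr2:85580964-85582491 and chr20:326975-328803, each with a standard deviation of 0.08. The region on chromosome 20 ranged between 51.4 and 71.7 CPM over all 56 libraries and was called in no knockout, while the one on chromosome 6 was still called higher in the SMARCA4 knockout. They lay apart from one another, with a median of 156700 base pairs to the next wide region, and 142 of them sat in 69 runs of 2 or 3 within 10000 base pairs. The share of a chromosome's regions that were wide was 2.47% on chromosome 8 and on chromosome 18 and reached 4.74% on chromosome 17.

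The 5 widest regions differed in how they behaved. The widest, chr3:3840246-3844228, spans 3982 base pairs and was called lower in the SMARCA4 knockout and in no other knockout. It had 38.9 and 30.5 CPM in SMARCA4 clone 4 and 32.6 and 29.8 CPM in clone 6, against 86.6 and 79.3 CPM in wild type (log2 fold change -1.23, adjusted p = 3.22e-14, edgeR). In the knockdown table it was lower in SMARCA4 knockout cells too (47.1 and 47.5 CPM, against 115 and 115 CPM in wild-type cells with shControl, -1.35, adjusted p = 0.0282). The next, chr4:62065584-62069255, of 3671 base pairs, was called lower in the knockouts of ARID1A (-0.72), ARID1B (-0.78), BCL11B (-0.61) and SMARCC1 (-0.91). The ARID1B change is a mean of 2 clones. In replicate 2 of ARID1B clone 7 the region had 17.5 CPM, the lowest of all 56 libraries. In SMARCA4 knockout cells it had 56.3 to 68.9 CPM, against 54.5 and 53.6 CPM in wild type, and was not called (0.29, adjusted p = 0.132). The regions chr3:185540996-185544459 (3463 base pairs) and chr22:24311122-24314493 (3371) were called in none of the 22 knockouts, and chr3:159480651-159483952 (3301) was called higher in the SMARCA4 knockout alone.

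The strongest per kb were chr15:82338264-82339899 at 76.0, chr7:21466572-21468273 at 71.8, chr5:151150069-151151723 at 70.9, chr14:105956926-105958527 at 69.6 and chr4:103747894-103749550 at 66.2 CPM per kb. The first of these was called in none of the 22 knockouts. The other 4 were called higher in the SMARCA4 knockout and in no other. The weakest, chr3:166726246-166727756, had 3.12 CPM per kb and was called higher in the ARID1B knockout.

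The share of a library's counts that fell in wide regions is a summary of their level relative to the other listed regions. Reads outside listed regions do not enter it. It was 15.8 ± 0.425% in the ARID1A knockout (SD, n = 4 libraries of 2 clones) and 15.7 ± 0.341% in the SMARCA4 knockout (n = 4), against 14.1% and 14.8% in wild type of set 1. All 8 libraries of these knockouts, at 15.3% or above, were higher than both wild-type libraries. So were both libraries of DPF3 (15.4% and 15.6%), SMARCC1 (15.1% and 15.3%) and BCL11A (15.0% and 15.0%). Both libraries were below wild type in PBRM1, whose product is the bromodomain subunit of PBAF (13.3% and 13.8%), in BRD7, a bromodomain subunit of PBAF (13.5% and 14.0%), and in SMARCA2 (13.7% and 14.0%). In the knockdown table it was 15.0% and 15.2% in SMARCA4 knockout cells with shControl, within the 13.8% and 15.3% of wild-type cells with shControl, and 11.8% and 13.1% in ARID2 knockout cells with shControl, below both. The libraries of 1 group differed widely there, with 12.6% and 15.2% after shSMARCA4 in wild-type cells. Most groups overlapped when replicate numbers were ignored. The difference of replicate 2 minus replicate 1 over regions correlated positively between all pairs of groups in that table (r of 0.0599 to 0.432). The shares were not compared number by number.

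**Figure D1:**
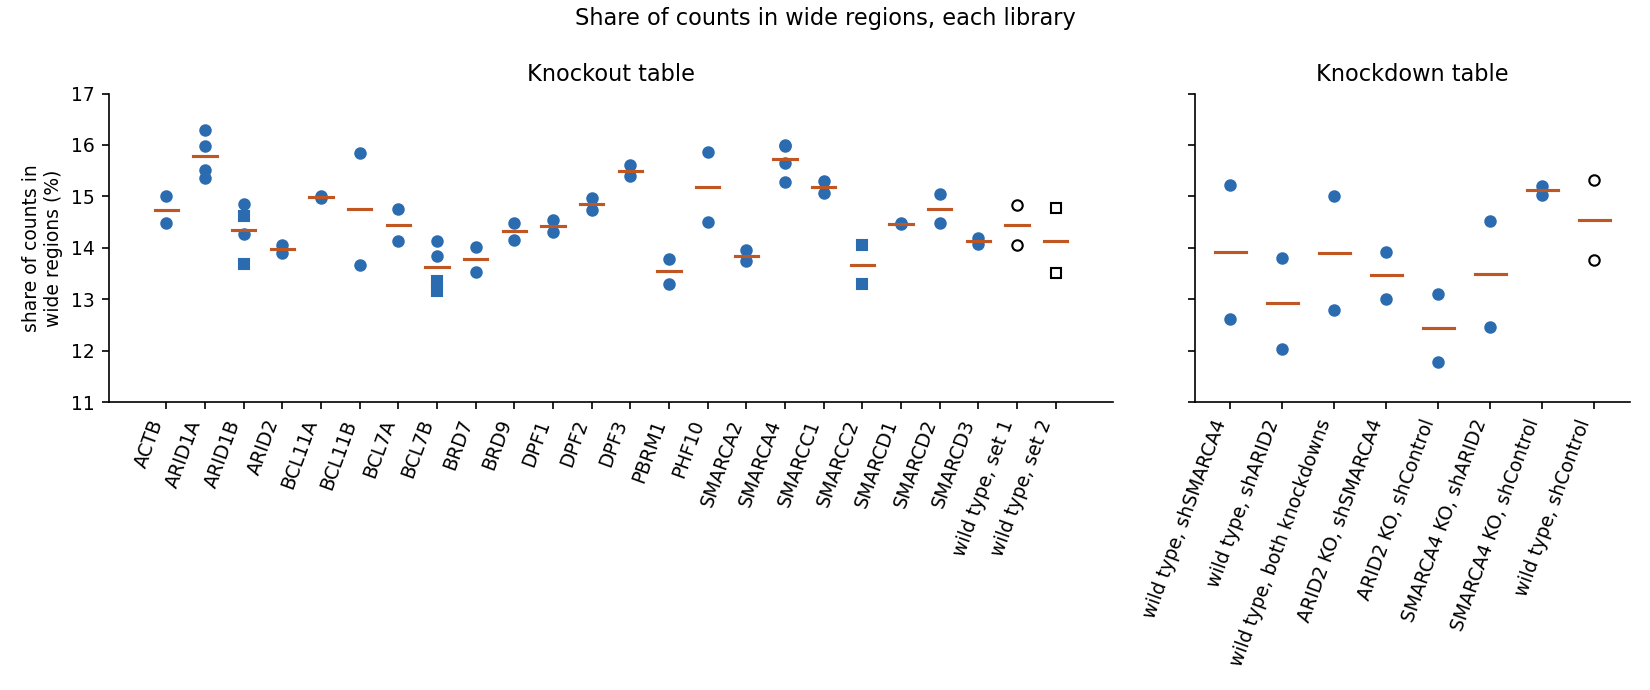
Share of each library's counts that fell in wide regions (%), in the knockout table (left panel) and the knockdown table (right panel). Points are libraries, squares mark set 2, open symbols mark wild type, and bars are group means; the ARID1A and SMARCA4 libraries, at 15.3% to 16.3%, sit above both wild-type libraries of set 1 at 14.1% and 14.8%.

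More wide regions were called in the SMARCA4 knockout, with 4 libraries, than in any of the other 21 knockouts. Of 4336, 1458 were called, or 33.6%, where 21.9% of all regions tested were called. Of these, 475 were lower, or 11.0% where 13.9% of all regions were lower, and 983 were higher, or 22.7% where 8% of all regions were higher. The median log2 fold change of the wide regions was 0.21, and that of all regions 0.01. Most of the higher calls were small. Changes of 2-fold or more numbered 249 lower (5.74% of wide regions, 10.3% of all regions) and 46 higher (1.06%, and 2.47% of all regions).

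The direction of the many small changes turned with the scaling. With loess offsets, which remove any trend of the change with accessibility, 796 wide regions were lower and 249 higher, and the median became -0.08. In the authors' own normalized values 258 were lower and 316 higher, and there the median of all regions moved by 0.33. Of the changes of 2-fold or more, all 249 lower and all 46 higher regions were also called in the same direction with loess offsets, and 135 and 46 of them were called so in the authors' values. The balance of 2-fold changes was 281 lower and 31 higher with loess offsets, but it turned in the authors' values, to 65 lower and 84 higher. Clone 4 alone gave 1208 calls (435 lower, 773 higher; 17.5% of all regions called) and clone 6 alone 1014 (402 and 612; 15.8%). The 2 clones differed from each other at 27 wide regions, where 0.224% of all regions did. Without wild-type replicate 2 the count fell to 707 (411 lower, 296 higher), and it was 1033 to 1284 without any other single library.

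The region chr3:19313719-19315366 fell furthest in SMARCA4 knockout cells. It had 2.79 and 3.49 CPM in clone 4 and 3.42 and 4.84 CPM in clone 6, against 39.9 and 39.7 CPM in wild type (log2 fold change -3.34, SE 0.18, adjusted p = 2.01e-36, edgeR). The 4 knockout libraries lay far below both wild-type libraries, and the 10 regions around it had a median change of -0.78. The other 4 that fell most by the naming rule were chr20:12893855-12895378 (-3.04), chr7:48675919-48677790 (-3.02), chr8:102619254-102620808 (-2.75) and chr17:53559398-53561100 (-2.65). None of their knockout libraries exceeded 6.28 CPM, while their wild-type libraries had 20.8 CPM or more.

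Among changes of 2-fold or more the higher regions were the fewer with TMM scaling. The region chr2:103129196-103131017 had 17.1 and 29.3 CPM in clone 4 and 30.6 and 31.8 CPM in clone 6, against 5.54 and 3.66 CPM in wild type (log2 fold change 2.63, SE 0.25, adjusted p = 1.13e-17). The region chr1:202427666-202429284 had 18.5 and 31.7 CPM in clone 4 and 15.98 and 22.3 CPM in clone 6, against 3.01 and 4.92 CPM in wild type (2.61, SE 0.27, adjusted p = 2.50e-15). That every knockout library stood above both wild-type libraries at both places was a condition of naming them. The regions around them changed by a median of 0.29 and -0.04. Next came chr10:91234569-91236367 (2.28), chr5:82280716-82282669 (1.88) and chr13:34184439-34186063 (1.78).

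**Figure D2:**
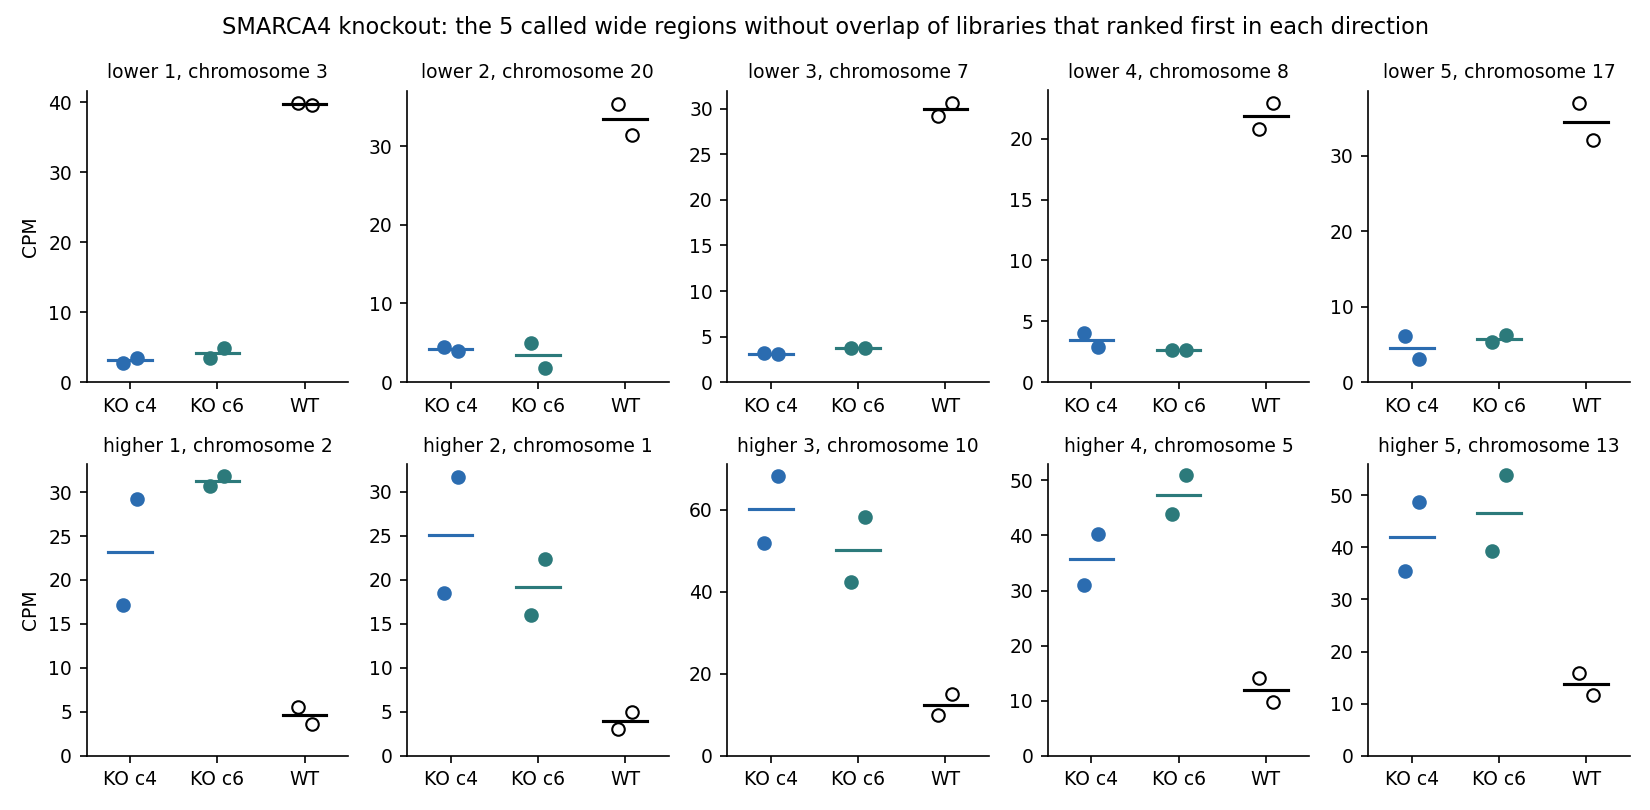
Accessibility (CPM) of the 10 wide regions named for the SMARCA4 knockout, 5 lower in the top row and 5 higher in the bottom row, in clone 4, clone 6 and wild type of set 1. Points are libraries and bars are means of 2 libraries, and each panel has its own axis from 0. Regions were named only where knockout and wild-type libraries did not overlap, so each panel shows 2 separate ranges.

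Among wide regions, the share that lost accessibility without SMARCA4 was greatest in the narrower and weaker ones. Lower and higher calls made up 14.3% and 21.3% of the narrow band, 8.92% and 23.1% of the middle band, and 5.34% and 25.4% of the broad band. Of the 412 wide regions between the median and the top 25% of all regions by CPM per kb, 35.4% were lower and 10.9% higher. Of the 3837 in the top 25%, 8.05% were lower and 24.3% higher. Other autosomal regions of the top 25% had 19.0% lower and 19.3% higher. Among the top 10% of all regions by CPM, the 3723 wide ones had 7.39% lower and 24.6% higher, and the 10172 others had 9.76% lower and 33.0% higher. These shares are descriptions, and they carry the dependence on scaling given above.

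SMARCA2, the other ATPase, left few marks. Its knockout called 14 wide regions (10 lower, 4 higher), or 0.323%, where 0.234% of all regions were called. Loess offsets gave 14 lower and 9 higher, the authors' values 7 and 5, and leaving out any 1 library 5 to 8 calls. The clearest was chr6:96463211-96464747, with 52.3 and 50.2 CPM in SMARCA2 knockout cells, against 9.14 and 8.07 CPM in wild type (2.55, adjusted p = 5.19e-17). The same region was called higher in the ACTB knockout, at 46.0 and 51.6 CPM (2.54, adjusted p = 1.07e-16). Set directly against each other, SMARCA4 and SMARCA2 knockout cells differed at 2100 wide regions (488 lower and 1612 higher in SMARCA4 knockout cells), or 48.4%, where 25.5% of all regions did. With loess offsets it was 753 lower and 360 higher, in the authors' values 301 and 289, and without SMARCA2 replicate 1 or 2 the count was 1231 or 1196.

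ARID1A, the DNA-binding subunit of canonical BAF, came second. Its knockout called 551 wide regions (314 lower, 237 higher), or 12.7%, where 12.6% of all regions were called. The shares were nearly equal, but wide regions held more counts, and the sets were not matched for accessibility. Lower calls made up 7.24% of wide regions, where 10.3% of all regions were lower, and higher calls 5.47%, where 2.27% of all regions were higher. The median change of the wide regions as a whole was 0.17, and it was 0.02 over all regions. Clone 10 gave 343 calls (8.26% of all regions called) and clone 3 gave 510 (9.68%), and the clones differed at 4 wide regions, where 0.0598% of all regions did. At 2-fold or more, 129 were lower (2.98%, and 6.81% of all regions) and 17 higher (0.392%, and 0.855% of all regions). With loess offsets the split was 405 lower and 129 higher, with every one of those 129 lower and 17 higher regions kept. In the authors' values it was 127 lower and 145 higher, with 73 of the 129 lower and all 17 higher regions kept, and at 2-fold or more the balance turned to 24 lower and 61 higher. Without wild-type replicate 1 or 2 the count was 345 or 322.

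Several of the regions that led in the SMARCA4 knockout led here as well. The region chr3:19313719-19315366 averaged 6.37 ± 0.610 CPM in ARID1A knockout cells (SD, n = 4) and 39.8 ± 0.109 CPM in wild type (n = 2). This was a change of -2.61 (adjusted p = 7.37e-28, edgeR). The other 4 lower regions were chr7:48675919-48677790, chr13:80297579-80299098 and chr8:40270760-40272304, each at -2.18, and chr8:102619254-102620808 at -2.04. The 5 higher ones were chr2:103129196-103131017 (2.61), chr1:184869466-184871077 (2.21), chr5:55700841-55702436 (1.82), chr1:202427666-202429284 (1.81) and chr12:63478820-63480684 (1.39). Both comparisons share the wild-type libraries, so the recurrence of regions is not independent. Tested directly, SMARCA4 and ARID1A knockout cells differed at 630 wide regions (327 lower and 303 higher in SMARCA4 knockout cells), or 14.5%, where 9.95% of all regions did, and with loess offsets at 499 lower and 212 higher. The region chr3:94029406-94031207 had 2.19 to 3.64 CPM in the 4 SMARCA4 knockout libraries and 14.1 to 26.7 CPM in the 4 ARID1A knockout libraries (-2.65, adjusted p = 8.91e-27).

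ARID1B, the paralogue of ARID1A, gave 163 called wide regions (50 lower, 113 higher), or 3.76%, where 3.22% of all regions were called, and leaving out any 1 library gave 100 to 132. Its 2 clones differed, one in each library set, so the clone and the set cannot be told apart. Against its own wild type, clone 7 gave 433 calls (94 lower, 339 higher; 9.22% of all regions were called) and clone 5 gave 16 (11 lower, 5 higher; 0.275% of all regions). The difference of their effects was called at 247 wide regions, where 4.97% of all regions were. The named regions were chr21:28318184-28319894 (-1.48) and chr18:57986151-57988048 (1.35). The chromosome 18 region had 43.3 and 44.2 CPM in clone 7, against 7.87 and 11.0 CPM in its wild type, but 22.0 and 24.7 CPM in clone 5, against 17.7 and 17.9 CPM in its wild type.

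DPF2, a histone-reading subunit of canonical BAF, had 95 calls (21 lower, 74 higher), or 2.19%, where 1.79% of all regions were called, with 37 lower and 42 higher under loess offsets and 9 and 16 in the authors' values. Without DPF2 replicate 1 the count was 15, and without wild-type replicate 2 it was 21. The region chr1:220959416-220961213 had 3.64 and 7.89 CPM in DPF2 knockout cells, against 42.8 and 36.7 CPM in wild type (-2.69, adjusted p = 1.15e-21). The neuronal paralogues DPF1 and DPF3 had 4 calls (4 lower, 0 higher) and 7 calls (4 lower, 3 higher), where 0.0515% and 0.0667% of all regions were called. Loess offsets gave 5 lower and 1 higher for DPF1 and 8 and 3 for DPF3, and the authors' values 4 and 1 and 4 and 0. Leaving out any 1 library gave 2 to 4 and 2 to 3 calls. The clearest were chr16:64014677-64016498 without DPF1 (-2.04) and chr6:101849554-101851061 without DPF3 (-2.16).

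Among the PBAF subunits, ARID2 loss called 148 wide regions (107 lower, 41 higher), or 3.41%, where 1.79% of all regions were called (1.11% lower, 0.682% higher). The median change of the wide regions as a whole was -0.06, and that of all regions tested 0.001. With 1 library left out in turn, the median of the wide regions ran between -0.12 and 0.01. Without ARID2 replicate 2 the lower calls no longer outnumbered the higher ones. The region chr21:22033472-22035322 had 1.76 and 3.67 CPM in ARID2 knockout cells, against 26.8 and 23.2 CPM in wild type (log2 fold change -3.21, SE 0.27, adjusted p = 6.84e-19). Both knockout libraries were far below wild type, and the 10 regions around it had a median change of -0.98. It was followed by chr6:106545059-106546950 (-1.80) and chr7:145812718-145814295 (-1.74). Higher were chr12:12837097-12838704 (1.28), chr1:202427666-202429284 (1.25) and chr6:56584622-56586227 (1.10). The count was 63 without ARID2 replicate 1 and 32 with DESeq2. Omitting replicate 1 or 2 of wild type left 43 or 81, and the authors' values gave 48 lower and 40 higher.

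Set directly against each other, ARID1A and ARID2 knockout cells differed at 1059 wide regions (352 lower and 707 higher in ARID1A knockout cells), or 24.4%, where 14.1% of all regions did, with loess offsets at 485 lower and 375 higher, and in the authors' values at 191 and 209. At chr3:19313719-19315366 ARID1A knockout cells had 5.53 to 6.95 CPM and ARID2 knockout cells 42.0 and 30.4 CPM (-2.49, adjusted p = 1.94e-26). At chr21:22033472-22035322 it was the reverse, with 15.2 to 26.8 CPM in ARID1A knockout cells and 1.76 and 3.67 CPM in ARID2 knockout cells (2.96, adjusted p = 6.78e-20). The count was 651 and 698 without ARID2 replicate 1 and 2.

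The other PBAF subunits and BRD9 changed few wide regions. PBRM1 had 39 calls (24 lower, 15 higher; 0.423% of all regions called), BRD7 53 (27 and 26; 0.695%), PHF10, a chromatin-reading subunit, 21 (11 and 10; 0.391%), and BRD9, the bromodomain subunit of non-canonical BAF, 25 (15 and 10; 0.497%). As shares of wide regions these were 0.899%, 1.22%, 0.484% and 0.577%. The region chr21:22033472-22035322 was the clearest lower one without BRD7 (2.59 and 3.38 CPM, -3.04), PHF10 (3.56 and 5.73 CPM, -2.36) and BRD9 (8.59 and 3.80 CPM, -1.99), against the same wild-type values as for ARID2. It was the clearest lower one without BCL11A too, at a mean of 3.22 CPM (-2.92). Without PBRM1 it had 24.9 and 26.4 CPM and was not called (0.02, adjusted p = 0.993). The clearest lower one without PBRM1 was chr21:16436175-16438483, with 9.92 and 7.01 CPM, against 32.8 and 28.2 CPM in wild type (-1.87). For PBRM1 loess offsets gave 28 lower and 47 higher. In the authors' values the splits were 16 lower and 30 higher for PBRM1, 17 and 26 for BRD7, and 8 and 4 for PHF10, and leaving out 1 library gave 5 to 15 calls for PBRM1, 18 to 36 for BRD7, 7 to 13 for PHF10 and 6 to 12 for BRD9.

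Of the core scaffold, SMARCC1 loss called 244 wide regions (154 lower, 90 higher), or 5.63%, where 5.19% of all regions were called (4.19% lower, 1% higher). At 2-fold or more 67 were lower (1.55%, and 3.36% of all regions) and 22 higher (0.507%, and 0.654% of all regions). The authors' values gave 40 lower and 63 higher, kept 27 of the 67 and all 22, and turned the balance at 2-fold or more to 20 lower and 40 higher. DESeq2 called 128, and leaving out any 1 library gave 128 to 162. Apart from a region on chromosome 9 that was nearly without counts, described below, the lower ones named were chr5:23007350-23009106 (-2.07) and chr9:11742249-11743822 (-2.06). Higher were chr9:71365079-71366710 (2.26), chr2:103129196-103131017 (2.1) and chr1:184869466-184871077 (1.80). The last region had 29.8 and 36.4 CPM in SMARCC1 knockout cells, against 9.33 and 9.96 CPM in wild type.

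SMARCC2, the partner of SMARCC1, had 5 calls (4 lower, 1 higher), where 0.0941% of all regions were called, among them chr7:69062151-69064021, with 80.6 and 58.5 CPM, against 39.8 and 32.8 CPM in wild type (0.91, adjusted p = 0.00249). Of the SMARCD subunits, which bridge the complex to transcription factors, SMARCD1 had 65 calls (40 lower, 25 higher; 1.58% of all regions called), SMARCD2 24 (14 and 10; 0.423%) and SMARCD3 39 (19 and 20; 0.842%). As shares of wide regions these were 1.5%, 0.554% and 0.899%. With SMARCD2 lost, chr8:3101635-3103293 fell (-1.76), and with SMARCD3 lost, chr22:49114523-49116319 rose (1.60). For SMARCD2, loess offsets gave 27 lower and 10 higher and the authors' values 8 and 2. Leaving out any 1 library gave 26 to 29 calls for SMARCD1, 6 to 14 for SMARCD2 and 16 to 24 for SMARCD3.

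The accessory subunits BCL7A and BCL7B, the zinc-finger proteins BCL11A and BCL11B, and ACTB, the actin that sits in the complex, gave small counts too. BCL7A had 21 calls (11 lower, 10 higher; 0.467% of all regions called), BCL11A 34 (12 and 22; 0.675%), BCL11B 52 (23 and 29; 0.893%) and ACTB 57 (20 and 37; 1.35%). As shares of wide regions these were 0.484%, 0.784%, 1.2% and 1.31%. Loess offsets gave 26 lower and 13 higher for BCL7A, 27 and 24 for BCL11A and 37 and 29 for BCL11B, and the authors' values 14 and 9 for BCL11A and 18 and 13 for BCL11B. Leaving out any 1 library gave 8 to 14 calls for BCL7A, 9 to 17 for BCL11A, 17 to 44 for BCL11B and 23 to 39 for ACTB. BCL7A and BCL11B shared both named regions. The first, chr4:169551927-169553476, had 4.74 and 6.48 CPM without BCL7A and 5.64 and 5.94 CPM without BCL11B, against 29.0 and 24.8 CPM in wild type. The second, chr4:130487611-130489346, had 21.0 and 18.3 CPM without BCL7A and 18.5 and 19.5 CPM without BCL11B, against 7.58 and 7.94 CPM in wild type. The region chr22:49114523-49116319 was the clearest higher one without BCL11A, BRD7, BRD9, PHF10 and SMARCD3, at 21.7 to 32.1 CPM, against 9.62 and 9.20 CPM in the wild type they share.

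BCL7B had 71 calls (50 lower, 21 higher), or 1.64%, where 1.4% of all regions were called, and its clones differed as those of ARID1B did, again with 1 clone in each library set. Clone 8 gave 237 calls (75 lower, 162 higher; 4.83% of all regions) and clone 10 gave 53 (49 lower, 4 higher; 0.743% of all regions). The difference of their effects was called at 308 wide regions, where 4.31% of all regions were. Loess offsets gave 41 lower and 50 higher for the gene, and the authors' values, which hold clone 8 alone, 71 and 122. Leaving out any 1 library gave 39 to 86 calls. At chr12:93495767-93497669 both clones were lower, with 11.8 and 12.3 CPM in clone 8, against 28.5 and 30.0 CPM in its wild type, and 19.8 and 19.5 CPM in clone 10, against 42.3 and 34.7 CPM in its wild type (-1.16, adjusted p = 4.97e-10).

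**Figure D3:**
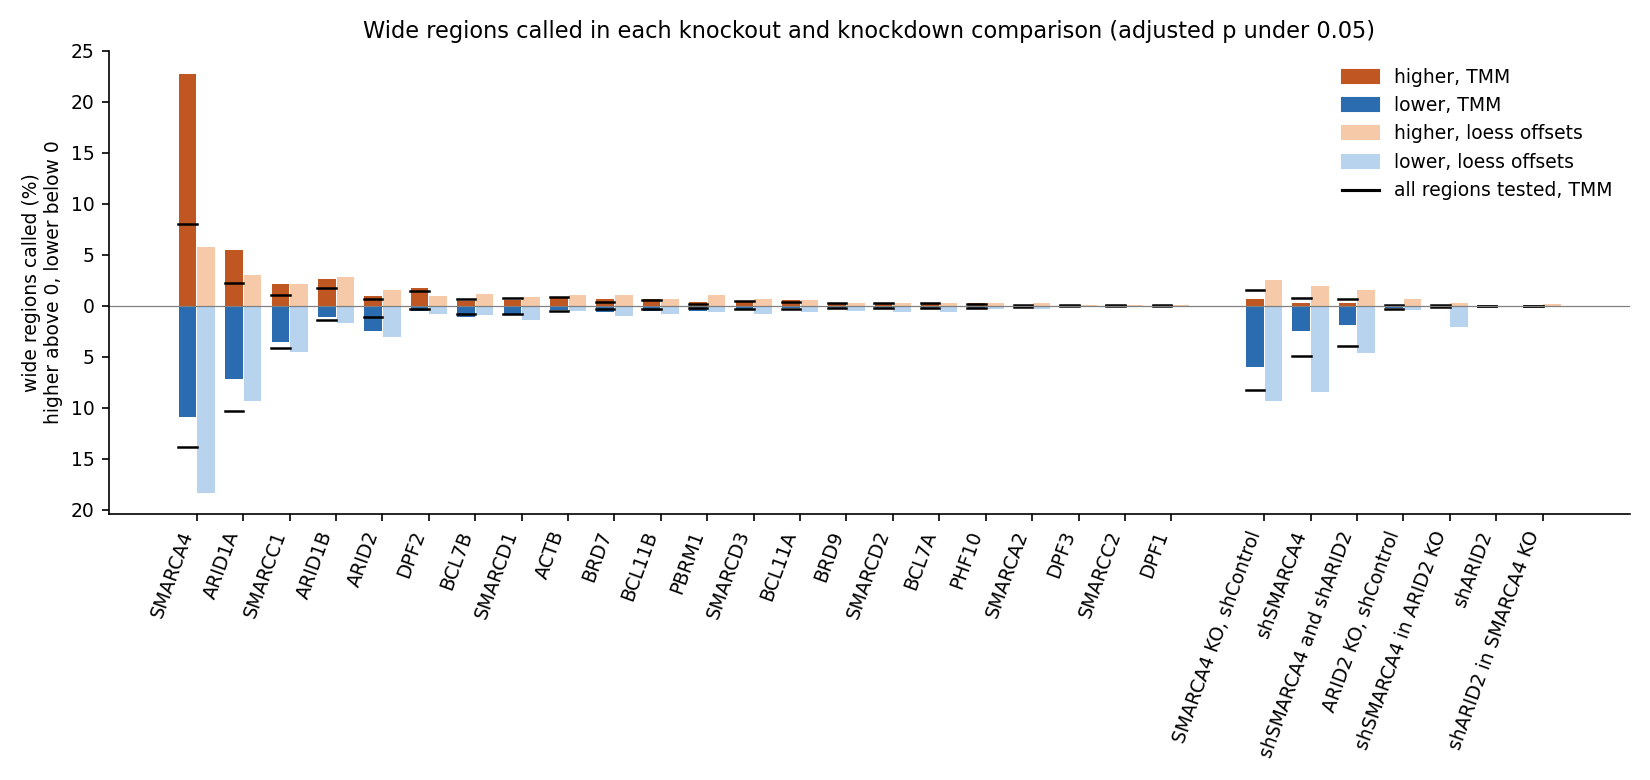
Percent of wide regions called in each knockout and knockdown comparison, higher above 0 and lower below 0, with TMM normalization (dark bars) and loess offsets (pale bars); black ticks mark all regions tested with TMM. For SMARCA4 the dark bar reaches 22.7% higher and 11.0% lower, and the pale bars turn the balance to more lower than higher.

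Over the 22 knockouts together, 1775 wide regions (40.9%) were called in at least 1, where 29.8% of all regions tested were, and 2561 in none. Of the 1775, 1071 were called in exactly 1 knockout (24.7% of wide regions, 15.9% of all regions) and 81 in 5 or more (1.87%, and 1.42% of all regions). Lower in one knockout and higher in another were 185 (4.27%, and 2.73% of all regions). None of these shares was matched for accessibility. The region chr2:225265492-225267100 was lower in 13 knockouts and higher in none. It had 5.00 and 4.30 CPM without DPF3, 5.54 and 6.21 CPM without BRD7 and 22.2 and 25.6 CPM without BCL11A, against 20.03 and 17.8 CPM in wild type of set 1. The libraries without DPF3 and BRD7 lay far below wild type, and those without BCL11A above it. Clone 5 of ARID1B (8.65 and 8.69 CPM) and clone 8 of BCL7B (7.46 and 10.2 CPM) were low, while clone 7 of ARID1B (21.5 and 21.4 CPM) and clone 10 of BCL7B (19.6 and 19.3 CPM) were at the wild-type level.

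The region chr21:22033472-22035322 was lower in 10 knockouts and higher in the DPF2 knockout. Both libraries were under 10 CPM in 9 clones, among them clone 7 of ARID1B (1.66 and 2.84 CPM) and clone 8 of BCL7B (2.39 and 3.50 CPM). Yet clone 5 of ARID1B had 24.0 and 21.5 CPM and clone 10 of BCL7B had 29.1 and 29.7 CPM, against 39.1 and 34.5 CPM in wild type of their set. The 2 clones of 1 gene therefore stood in different ranges at this region, and the gene and the clone cannot be told apart for the genes with 1 clone. The third, chr11:63257189-63258858, was lower in 9 knockouts.

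The region chr5:152475772-152477302 was called in 16 knockouts, higher in 12 and lower in 4. It had 1.70 to 3.09 CPM in SMARCA4 knockout cells and 3.18 to 5.50 CPM in ARID1A knockout cells, but 34.8 and 33.5 CPM in ACTB knockout cells and 26.3 and 27.7 CPM in PBRM1 knockout cells, against 11.8 and 11.3 CPM in wild type of set 1. Wild type of set 2, with 22.2 and 25.8 CPM, lay at the level of many of the knockouts that were called higher. The regions chr4:130487611-130489346 (higher in 11) and chr13:38442690-38444923 (higher in 10, lower in 3) came next. At the first of these, wild type of set 2 had 17.9 and 19.7 CPM, against 7.58 and 7.94 CPM in set 1. The part of those 2 libraries in its calls was not tested.

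In the knockdown table, SMARCA4 knockout cells with shControl differed from wild-type cells with shControl at 290 wide regions (262 lower, 28 higher), or 6.69%, where 9.75% of all regions were called (8.26% lower, 1.49% higher). With any 1 library left out it was 123 to 185, and loess offsets gave 407 lower and 111 higher. With the replicate number as a block, that is, as a term of the fit, it was 416 lower and 111 higher. The region chr5:3117329-3119080 had 2.63 and 5.33 CPM in SMARCA4 knockout cells, against 30.3 and 32.3 CPM in wild-type cells (-3.05, adjusted p = 9.40e-08).

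No library is shared between the 2 tables, so the SMARCA4 knockout can be compared across them. The titles name no clone for the knockout cells of the knockdown table. They may be a clone of the knockout table, so what recurs may belong to a clone. Of the 475 wide regions lower in the knockout table, 249 were lower again here, which is 52.4% of the first list and 95% of the second, and 96.2% of the 475 had a negative change. Over all regions tested in both tables these shares were 44.4%, 74.6% and 93%. Of the 983 higher ones, 25 were called higher again, 2.54% of the first list and 89.3% of the second. Their median change was 0.19, and 80.7% were positive. Over all regions the shares called again were 9.59% and 51.4%, the median change was 0.37 and 86.3% were positive. Across the 4336 regions the changes had a Pearson r of 0.83 and a Spearman rho of 0.62, and across all regions 0.64 and 0.56, given as a description. The knockdown table has 2 libraries a group, while the SMARCA4 knockout had 4 in the knockout table.

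**Figure D4:**
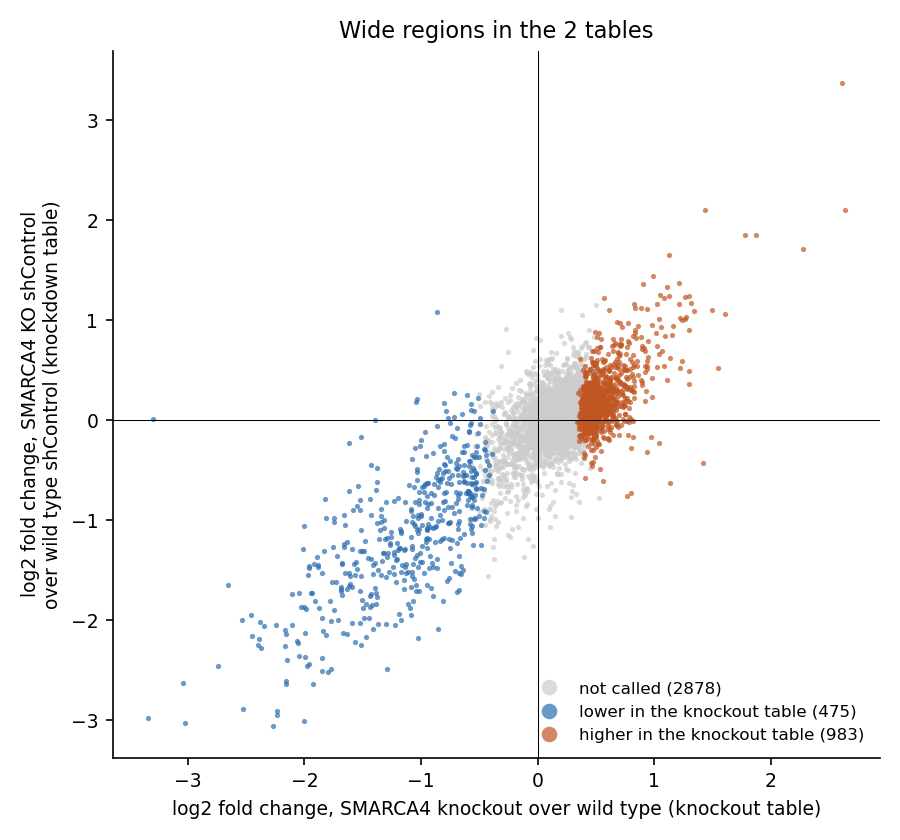
Log2 fold change of each of 4336 wide regions in SMARCA4 knockout over wild type in the knockout table (horizontal axis) and in SMARCA4 knockout with shControl over wild type with shControl in the knockdown table (vertical axis). Colours give the call in the knockout table, and most of the 475 lower regions lie in the lower left, while the 983 higher ones crowd near a change of 0.19 on the vertical axis.

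Knockdown of SMARCA4 in wild-type cells called 117 wide regions (108 lower, 9 higher), or 2.70%, where 5.73% of all regions were called (4.96% lower, 0.773% higher). The median change of the wide regions as a whole was -0.12 and that of all regions 0.06. With 1 library left out in turn, the median of the wide regions was 0.04, -0.26, -0.40 and 0.08, so its sign depended on single libraries. The lower ones named were chr5:101938372-101939873 (-2.28), chr3:163938472-163940561 (-2.26) and chr2:187939352-187941066 (-2.25). The first had 5.33 and 7.40 CPM after shSMARCA4, against 28.2 and 30.9 CPM with shControl. Of the 475 wide regions lower in the SMARCA4 knockout, 96 were lower after the knockdown (20.2% of that list and 88.9% of the knockdown list, where all regions gave 25.4% and 71.2%). With any 1 library left out it was 32 to 50, and loess offsets gave 369 lower and 84 higher. The replicate block gave 346 lower and 63 higher.

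The region chr1:202427666-202429284 ranked first among the higher regions in each of the 4 comparisons of this table that tested loss or knockdown of SMARCA4 and called any. It had 31.3 and 24.1 CPM after shSMARCA4 and 33.5 and 27.1 CPM after both knockdowns in wild-type cells, and 33.9 and 24.7 CPM in SMARCA4 knockout cells, against 3.35 and 1.90 CPM in wild-type cells with shControl. The log2 fold changes were 3.33, 3.43 and 3.37 (adjusted p = 1.16e-06, 7.43e-07 and 4.73e-08, edgeR). In ARID2 knockout cells it had 38.6 and 36.7 CPM after shSMARCA4, against 9.79 and 6.16 CPM with shControl (2.36, adjusted p = 0.00245). After shARID2 in wild-type cells it had 5.13 and 5.80 CPM and was not called (0.88, adjusted p = 0.988). By contrast, chr2:103129196-103131017 had 14.5 and 21.7 CPM in SMARCA4 knockout cells (2.1, adjusted p = 3.08e-05), but 3.98 and 7.23 CPM after shSMARCA4 (0.39, adjusted p = 0.666), against 4.67 and 3.17 CPM in wild-type cells with shControl. The difference between knockout and knockdown at that region was not tested.

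The double knockdown of SMARCA4 and ARID2 called 91 wide regions (81 lower, 10 higher), or 2.1%, where 4.62% of all regions were called (4% lower, 0.618% higher), and loess offsets gave 202 lower and 65 higher. The lower one named was chr4:21849631-21851279, with 2.14 and 3.51 CPM, against 10.3 and 12.0 CPM with shControl (-2.08, adjusted p = 0.000255). With any 1 library left out it was 14 to 33, and the replicate block gave 246 lower and 57 higher.

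ARID2 knockout cells with shControl had 11 calls, all lower, or 0.254%, where 0.418% of all regions were called (0.374% lower, 0.0446% higher). The median change of the wide regions as a whole was -0.41, and that of all regions 0.001. Loess offsets gave 17 lower and 27 higher and a median of 0.02, and leaving out any 1 library gave 1 to 3 calls. The replicate block gave 364 lower and 9 higher. All 11 were among the 107 lower in the ARID2 knockout of the other table, that is 10.3% of that list, where over all regions 17.3% of the knockout list and 51.3% of the knockdown list were shared. The region chr21:22033472-22035322 was the clearest again, with 7.83 and 7.07 CPM, against 32.9 and 37.0 CPM in wild-type cells with shControl (-2.42, adjusted p = 0.000501). After shARID2 in wild-type cells it had 44.6 and 30.3 CPM and was not called. The clone of these ARID2 knockout cells is not named and may be the same, so gene and clone cannot be told apart.

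Knockdown of SMARCA4 in ARID2 knockout cells called 6 wide regions (5 lower, 1 higher), where 0.195% of all regions were called. Leaving out any 1 library gave 1 to 8. Loess offsets gave 89 lower and 10 higher, but the replicate block gave 62 lower and 171 higher, so count and direction depended on the model. The region chr2:187939352-187941066 had 8.03 and 5.56 CPM after shSMARCA4, against 26.1 and 26.6 CPM with shControl (-1.81, adjusted p = 0.0128). Knockdown of ARID2 called none with edgeR, in wild-type cells or in SMARCA4 knockout cells, where 0% of all regions were called. At an unadjusted p under 0.05 there were 53 and 71 wide regions, or 1.22% and 1.64%, where 4.24% and 4.48% of all regions were under it, and DESeq2 also called 0 and 0. The 2 tests of whether a knockdown acted differently in knockout cells called 0 and 0 wide regions with edgeR and with DESeq2. At the same unadjusted p, shSMARCA4 in ARID2 knockout against wild-type cells had 38, or 0.876%, where 5.19% of all regions were under it, and shARID2 in SMARCA4 knockout against wild-type cells had 16, or 0.369%, where 2.77% were.

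A last group of 7 wide regions was nearly empty in a single clone, with under 5% of the wild-type CPM. In SMARCC2 clone 10, chr1:22468564-22470532 had 0 and 0 counts, against 126 and 111 in wild type of its set, and chr1:6926754-6928425 had 0 and 0, against 119 and 112. With a floor of 3 counts over the group, these were at least 67.2-fold and at least 65.5-fold lower. In SMARCD1 clone 6, chr14:81166016-81167873 had 0 and 2 counts, against 192 and 123 in wild type. Such regions made up 0.0118% and 0.0209% of all regions of 10 CPM or more in wild type for these clones.

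The others had a few counts left. SMARCC1 clone 12 had 9 and 8 counts at chr9:82277283-82279851, against 574 and 437 in wild type (-6.00, SE 0.27, adjusted p = 7.30e-47; 0.0377% of all such regions). SMARCA4 clone 4 had 2 and 2 at chr9:132804445-132806083, against 296 and 180 (-6.67; 0.0167%). ACTB clone 10 had 7 and 12 at chr9:86321806-86323848, against 467 and 327 (-5.53; 0.00837%), and SMARCD3 clone 12 had 4 and 3 at chr2:141870607-141872440, against 129 and 122 (-5.25; 0.0167%). The other 25 clones had more counts at each of these regions, though not always near wild type. At chr9:82277283-82279851 the lowest of them averaged 35.5 CPM. At chr2:141870607-141872440 SMARCA4 clone 6 had 4.19 and 2.68 CPM, against 12.5 and 15.4 CPM in wild type, and at chr14:81166016-81167873 the SMARCA4 and ARID1A clones had 4.53 to 7.83 CPM, against 18.7 and 15.5 CPM in wild type.

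The loss reached past the wide region itself. Consecutive regions with under 20% of the wild-type CPM numbered 37 over 805 kb around the one in SMARCC1 clone 12, 9 over 347 kb in SMARCD3 clone 12, 8 over 125 kb in SMARCD1 clone 6 and 9 over 116 kb in SMARCA4 clone 4. They numbered 4 over 59.3 kb and 3 over 38.6 kb in SMARCC2 clone 10 and 3 over 8.88 kb in ACTB clone 10. At the SMARCA4 region, clone 6 had 27.1 and 23.7 CPM and SMARCA4 knockout cells with shControl in the knockdown table had 26.8 and 26.8 CPM, so the loss was seen in clone 4 and in no other SMARCA4 knockout libraries. Whether DNA was missing from these clones was not tested. The region chr1:6926754-6928425 falls outside the rule for naming regions and was chosen after its values were seen.

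**Figure D5:**
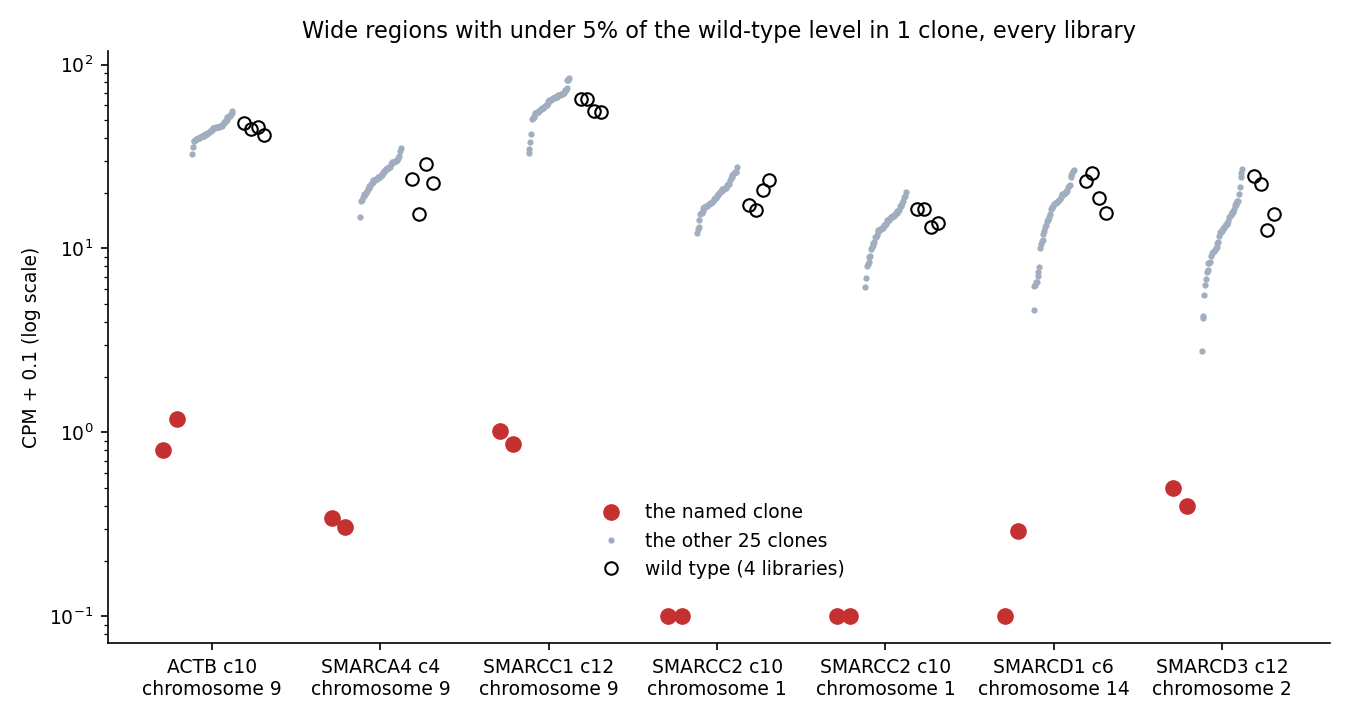
Accessibility (CPM + 0.1, log axis) of the 7 wide regions with under 5% of the wild-type level in 1 clone. Red points are the 2 libraries of the named clone, grey points the libraries of the other 25 clones, and open circles the 4 wild-type libraries; the red points lie below every other point in each column.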

How the data were processed

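ATAC-seq libraries of HAP1 clones were made from cells permeabilised with digitonin and treated with the TDE1 transposase, per the labels' protocols. Bowtie2 2.2.4, Picard 1.118, MACS2 2.1.1.20160309 and build hg19 are named in the submitters' processing notes, with no further settings given in the sources used here. The authors deposited whole-number read counts per region, in a knockout table of 56 libraries and a knockdown table of 16, and a table of normalized values, treated here as a score because its scale is not stated. Of 74 labelled samples, 2 wild-type libraries had no matching column, and 2 count columns that match no label were not used. The members and the lists were chosen with earlier results of these data known.

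Counts were scaled by TMM and tested with edgeR 4.0.16 (quasi-likelihood, R 4.3.3) in 1 fit per table, after edgeR's filter on low counts, which left 145532 and 145617 regions; p-values were adjusted by Benjamini-Hochberg over all of them. The scripts were tested on simulated data. CPM are counts per 1000000 counts of a library in regions. Alternatives were RLE scaling, loess offsets, no filter, the replicate number as a block, the mean of the other knockouts of set 1 as the reference, limma 3.58.1 on the authors' normalized values, DESeq2 1.42.0 and leaving out each library. Regions were named by rule: the widest, strongest, weakest and steadiest, those at the width limit, those called in the most knockouts, and, per comparison, called regions of largest change whose libraries did not overlap. For a named region, its neighbours are the 10 nearest regions that are not wide.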

Additional observations from a re-analysis of the deposited data

Results flagged for a closer look

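Clones of 1 gene differed in a direct test with edgeR at 27 wide regions for SMARCA4 (clone 4 minus clone 6: 22 lower, 5 higher), where 0.224% of all regions tested were called, with 3 lower and 0 higher in the authors' values. For ARID1A (clone 3 minus clone 10) it was 4 wide regions (2 lower, 2 higher), where 0.0598% of all regions were called, and 6 lower and 3 higher with loess offsets. For ARID1B, clone 7 minus clone 5, each against its own wild type, it was 247 (42 lower, 205 higher), where 4.97% of all regions were called, and 148 lower and 134 higher with loess offsets. For BCL7B, clone 8 minus clone 10, it was 308 (38 lower, 270 higher), where 4.31% of all regions were called, and 169 lower and 122 higher with loess offsets. In the ARID1B and BCL7B pairs the clones come from different library sets, so the clone and the set cannot be told apart.

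At 2 regions 1 library stood apart from the other 3 of its group. SMARCA4 clone 4 replicate 1 had 4.01 CPM at chr8:102619254-102620808, against 2.65 to 2.87 CPM in the other knockout libraries. ARID1A clone 3 replicate 2 had 7.28 CPM at chr7:48675919-48677790, against 6.12 to 6.15 CPM in the others. Chance sets about 1 in 20 such groups apart. Both libraries stayed far below wild type.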

How the results depend on the processing

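Of 217 alternative values of 42 counts and shares, 149 stayed within 1.5 times the value given, all of those under RLE scaling and without the filter among them, and 68 moved further. The cause was not tested. With the mean of the other knockouts of set 1 in place of wild type, the wide regions called were 2598 for SMARCA4, 1456 for ARID1A, 674 for ARID1B, 567 for BCL7B, 416 for ARID2, 399 for SMARCC1, 314 for PBRM1, 286 for BRD7, 258 for DPF2, 210 for ACTB, 202 for SMARCD1, 162 for BCL11A, 149 for SMARCD3, 146 for BCL11B, 140 for SMARCD2, 132 for BRD9, 111 for SMARCA2, 97 for PHF10, 94 for DPF3, 58 for BCL7A and 30 for DPF1. Loess offsets gave 90 for BRD7, 75 for PBRM1, 64 for SMARCD3, 39 for BCL7A, 37 for SMARCD2, 23 for SMARCA2, 11 for DPF3, 9 between the ARID1A clones and 1113 between SMARCA4 and SMARCA2. In the knockdown table they gave 453 for shSMARCA4, 267 for both knockdowns, 44 for ARID2 knockout, 518 for SMARCA4 knockout, 99 for shSMARCA4 in ARID2 knockout cells and 5 for shARID2 in SMARCA4 knockout cells. The authors' values gave 574 for SMARCA4, 272 for ARID1A, 193 for BCL7B, 103 for SMARCC1, 88 for ARID2, 43 for SMARCD1, 35 for ACTB, 31 for BCL11B, 25 for DPF2, 13 each for BCL7A and BRD9, 12 for PHF10, 10 for SMARCD2, 4 for DPF3, 3 and 2 between the clones of SMARCA4 and of ARID1A, 196 between SMARCA4 and ARID1A, 400 between ARID1A and ARID2 and 590 between SMARCA4 and SMARCA2. They moved the median of all regions by 0.33 (log2) for SMARCA4 and 0.21 for ARID1A. DESeq2 gave 128 for SMARCC1, 32 for ARID2, 23 for ARID2 knockout and 13 for shSMARCA4 in ARID2 knockout cells in the knockdown table. The share of counts in regions of 2000 base pairs or more was 4.37% for SMARCA4, 4.36% for ARID1A and 3.95% for wild type of set 1.

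The labels do not say whether replicate numbers pair the libraries. Correlations between groups of the difference replicate 2 minus replicate 1 ran between -0.156 and 0.249 in set 1 of the knockout table. There 46 of 48 libraries belonged to groups whose largest positive correlation exceeded the largest negative one in size. In the knockdown table all correlations were positive, between 0.0599 and 0.432, with 89.3% over 0.1, so this held for 16 of 16 libraries. The main fits left the number out, so their spread includes any difference shared by same-numbered libraries. With the replicate number as a block, the knockdown table gave 409 for shSMARCA4 (346 lower, 63 higher), 303 for both knockdowns (246 and 57), 373 for ARID2 knockout (364 and 9), 527 for SMARCA4 knockout (416 and 111), 1 for shARID2 in SMARCA4 knockout cells and 233 for shSMARCA4 in ARID2 knockout cells (62 lower and 171 higher, where 5 lower and 1 higher were called without the block); in the knockout table no count moved by more than 1.5 times. No paired analysis was possible for SMARCC2 or between the wild-type sets because the groups compared carry different replicate numbers, and set 2 libraries had no block term.

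Leaving out each library in turn moved 109 of 202 values by more than 1.5 times. The ranges not given above were 471 to 592 between SMARCA4 and ARID1A, 651 to 942 between ARID1A and ARID2, 1196 to 1744 between SMARCA4 and SMARCA2, 11 to 19, 1 to 4, 126 to 225 and 77 to 437 between the clones of SMARCA4, ARID1A, ARID1B and BCL7B, and 4 to 6 for SMARCC2. The others were 707 to 1284 for SMARCA4, 322 to 557 for ARID1A, 100 to 132 for ARID1B, 43 to 116 for ARID2, 128 to 162 for SMARCC1, 15 to 103 for DPF2, 39 to 86 for BCL7B, 26 to 29 for SMARCD1, 23 to 39 for ACTB, 18 to 36 for BRD7, 17 to 44 for BCL11B, 16 to 24 for SMARCD3, 9 to 17 for BCL11A, 8 to 14 for BCL7A, 7 to 13 for PHF10, 6 to 14 for SMARCD2, 6 to 12 for BRD9, 5 to 15 for PBRM1, 5 to 8 for SMARCA2, 2 to 4 for DPF1, 2 to 3 for DPF3 and 72 to 135 between the wild-type sets. In the knockdown table they were 123 to 185 for SMARCA4 knockout, 32 to 50 for shSMARCA4, 14 to 33 for both, 1 to 3 for ARID2 knockout, 1 to 8 for shSMARCA4 in ARID2 knockout cells and 0 to 0 for shARID2 and for the difference of a knockdown between cells. Shares of counts were 15.6% to 15.9% for SMARCA4 and for ARID1A and 14.1% to 14.8% for wild type. Of 989 values of named regions, 956 kept their call, 33 lost it and 0 reversed. Regions named per comparison were chosen for large called changes in these same data, so a kept call was likely from the start. Most groups had 2 libraries, and how far depth limits the calls was not tested.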
